A study of Mus musculus with 4 samples.

Results

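The genes of polyamine metabolism were examined in the gastrocnemius muscle of mice that differed in exercise (E) and in the presence of a tumor (T). The 10 genes, taken by symbol from the 23282 gene rows deposited, were Odc1, Amd1, Amd2, Srm and Sms for synthesis, Smox and Sat1 for catabolism, and Azin1, Oaz1 and Oaz2 for the control of ornithine decarboxylase. All 10 symbols were found once in each of the 4 libraries. The mice were of the CDF1 strain, and the labels give an age of postnatal day 28. In the paper this is the age at purchase, and the muscle was taken later, at the end of the experiment. The mice were therefore older at sampling than the labels state. They carried no engineered allele that the labels name. Normal control mice (E−T−) received neither treatment, normal exercise mice (E+T−) ran on a treadmill at high intensity, cancer control mice (E−T+) were injected with CT26 murine colorectal carcinoma cells through the tail vein, and cancer exercise mice (E+T+) received both. Each group had 1 library, so that none of the differences has a replicate check and no p-value is given. The labels name 10 mice per group while the paper describes a representative mouse, and the number of animals behind each library is not settled.

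Polyamines are small cations that bind nucleic acids and are needed for growth and protein synthesis. Ornithine decarboxylase makes putrescine from ornithine, and the aminopropyl groups that turn putrescine into spermidine and then spermine come from S-adenosylmethionine through S-adenosylmethionine decarboxylase. Antizymes bind ornithine decarboxylase and send it to the proteasome, and the antizyme inhibitor releases it. In skeletal muscle the pathway is known to respond to muscle use, and spermine oxidase is known as a gene whose level falls in several models of atrophy.

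The tumor comparisons held the large differences. S-adenosylmethionine decarboxylase (Amd1 and Amd2) fell 25.2-fold and 25.8-fold in cancer control against normal control and 9.26-fold and 9.23-fold in cancer exercise against normal exercise. Spermine oxidase (Smox) fell 9.79-fold and 7.78-fold in the same comparisons. Spermidine synthase (Srm) rose 6.46-fold and 3.79-fold and spermidine/spermine acetyltransferase (Sat1) rose 3.61-fold and 2.80-fold. Ornithine decarboxylase (Odc1) and antizyme inhibitor (Azin1) stayed within 2-fold in every comparison.

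A fold change is the ratio of normalized read counts plus 1, and a gene was counted as changed when it differed at least 2-fold and its normalized count reached 4 in either of the libraries compared. In cancer control against normal control, 7 of the 10 genes changed, where 45.1% of the 14818 genes past the minimum changed. Of the 10 genes 2 were higher and 5 lower, where 20.9% and 24.2% of all genes were. The median log2 difference was -1.12 over the 10 genes and -0.04 over all genes past the minimum. In cancer exercise against normal exercise, 5 changed against a background of 30.3%, 2 higher (background 13.9%) and 3 lower (16.3%), with medians of -0.52 and -0.03. With exercise in healthy mice 4 changed against 21.5%, 2 higher (9.44%) and 2 lower (12.1%), and with exercise in tumor-bearing mice 1 changed against 30.6%, which was higher (15.6%, with 15.1% lower). The medians were -0.11 for the 10 genes and -0.01 for all genes with exercise in healthy mice, and 0.28 and 0.005 with exercise in tumor-bearing mice. At a threshold of 4-fold 4 polyamine genes changed with the tumor without exercise (background 21.4%), 3 with the tumor in exercised mice (13.5%), 0 with exercise in healthy mice (9.9%) and 1 with exercise in tumor-bearing mice (14.2%). At 1.5-fold the counts in the same order were 8 (64.3%), 8 (49.1%), 5 (37.9%) and 3 (49.5%). All 10 genes passed the minimum in each comparison. Oaz1, with between 1 and 13 reads per library, supplied 1 of the changed genes in 3 of the 4 comparisons, and it was the only 1 with exercise in tumor-bearing mice.

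The libraries held between 10647462 and 13226054 reads, as rebuilt from the deposited values. A count of 3 reads, the floor used here, is between 2.27e-05% and 2.82e-05% of a library. Intervals are 95% intervals of the read counts (Clopper-Pearson for a ratio, exact Poisson for a level) and cover counting error only. All 9 muscle markers fixed for the check of the tissue, among them Acta1, Ckm and Myh4, had reads in every library and together took between 6.01% and 11.4% of the reads. Their summed normalized count was highest in normal control and lowest in cancer control, with a median log2 difference of -0.81 in cancer control against normal control, -0.28 in cancer exercise against normal exercise, -0.59 with exercise in healthy mice and 0.51 with exercise in tumor-bearing mice. In whole muscle, fewer cells of a type and less RNA per cell cannot be told apart.

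**Figure D1:**
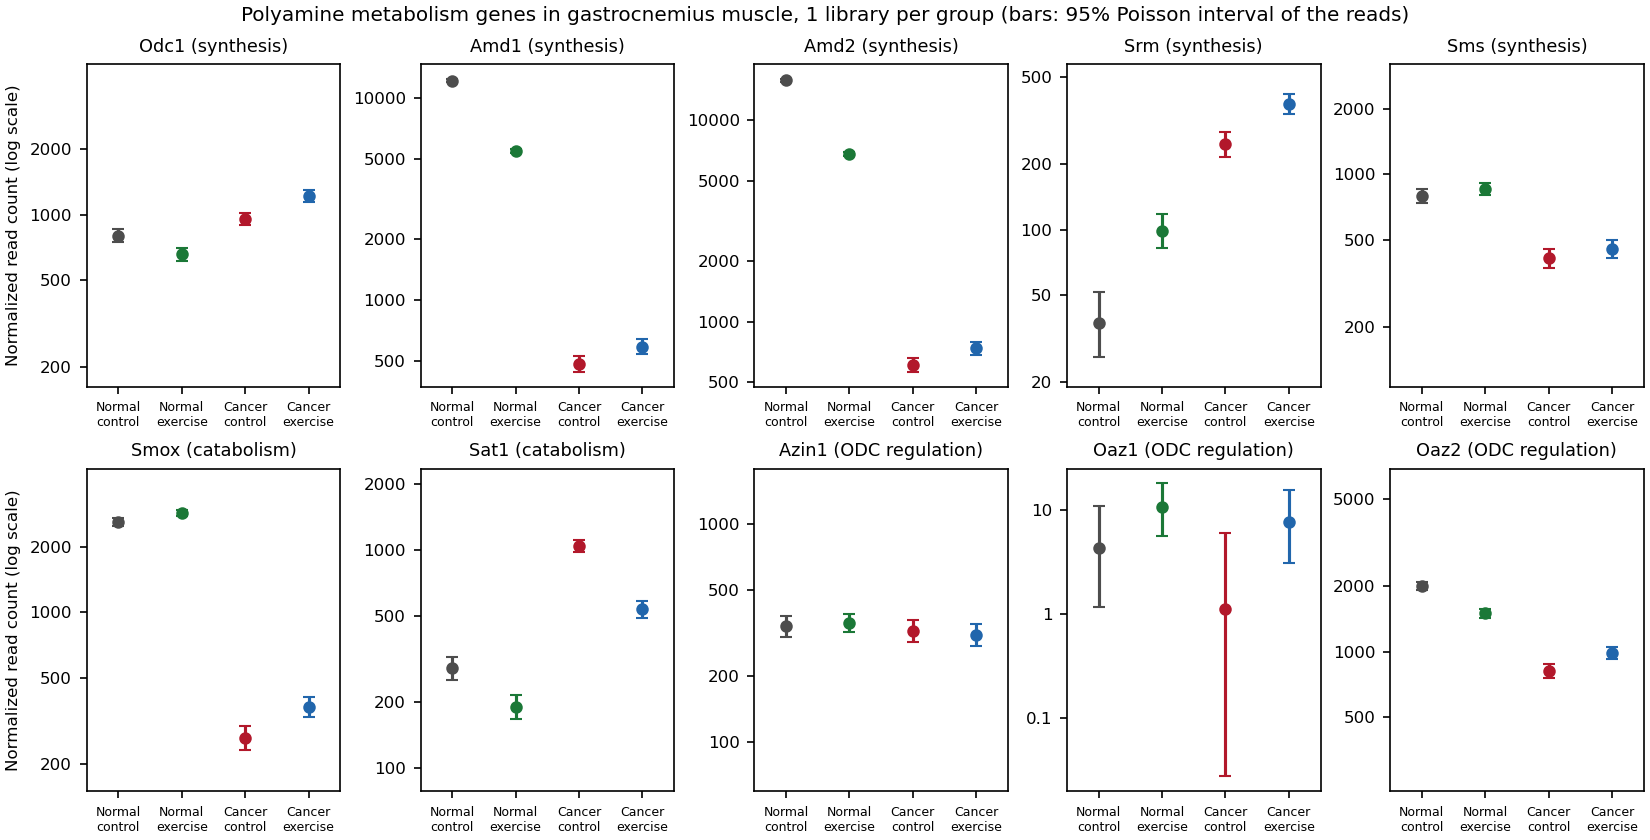
Normalized read count (log axis, its range set for each panel) of each polyamine gene in the 4 libraries, with 1 point per library and bars for the 95% Poisson interval of the reads. Amd1, Amd2 and Smox sit far lower in both libraries of tumor-bearing mice, Srm and Sat1 sit higher there, Azin1 is level, and the bars of Oaz1 are wide because it has between 1 and 13 reads.

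Some of these rows share sequence with other genes, which bears on how they can be read. Amd1 lies on the minus strand of chromosome 10 (chr10:40287458-40302186, GRCm38, GENCODE M21) with up to 8 exons in a transcript. Amd2 (chr10:35708675-35711892) is annotated as protein coding with 1 exon. The last 500 bases of their transcripts are 95.7% identical, and 98.6% of the 75-base windows in the end of Amd1 occur without mismatch in Amd2. Reads of 75 bases from 3′ ends, as sequenced here, therefore mostly cannot be assigned to one of them. Their upstream sequences, in contrast, were 47.6% identical over 275 aligned columns. The 250 bases before the RefSeq start site of each (build GRCm38.p6) are shown to let the starts be compared, 5′ to 3′ on the strand of the gene, from chr10:40302189-40302438 for Amd1 and chr10:35711892-35712141 for Amd2, both minus strand. Those of Sat1 (chrX:155216450-155216699, minus strand) are added as an example of a gene that rose. Capitals mark matches to the motifs searched on both strands, which were the GC box (GGGCGG), the E-box (CACGTG), the CCAAT box and the cyclic AMP response element (TGACGTCA).
Amd1: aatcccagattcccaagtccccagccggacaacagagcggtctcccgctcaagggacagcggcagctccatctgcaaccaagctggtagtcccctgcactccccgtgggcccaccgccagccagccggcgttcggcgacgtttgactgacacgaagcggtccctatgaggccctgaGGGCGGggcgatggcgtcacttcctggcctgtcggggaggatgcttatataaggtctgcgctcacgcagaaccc
Amd2: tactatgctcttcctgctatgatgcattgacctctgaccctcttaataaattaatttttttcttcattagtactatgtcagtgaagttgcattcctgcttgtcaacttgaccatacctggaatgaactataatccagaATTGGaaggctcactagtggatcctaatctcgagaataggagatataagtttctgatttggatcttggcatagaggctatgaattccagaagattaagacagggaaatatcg
Sat1: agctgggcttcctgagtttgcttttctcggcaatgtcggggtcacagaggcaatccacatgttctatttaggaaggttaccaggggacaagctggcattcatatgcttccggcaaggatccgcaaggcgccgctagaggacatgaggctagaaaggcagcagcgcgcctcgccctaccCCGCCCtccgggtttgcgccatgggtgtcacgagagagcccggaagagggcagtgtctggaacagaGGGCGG

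The window of Amd1 has 64.4% G and C and 1 GC box, and that of Amd2 has 37.6% and no GC box but 1 CCAAT box. Sat1 has 2 GC boxes. Windows were found for 8 of the 10 genes. A GC box was present upstream of 6 of them (Amd1, Oaz2, Odc1, Sat1, Smox and Sms) and in 32.7% of all 32851 windows of the same length. Sms has 2 windows, from 2 start sites, of which one holds its GC boxes and the other its remaining matches, while the shares of all windows count each window alone. The E-box, a site that MYC can bind, was present upstream of Sms alone and in 6.02% of all windows. A CCAAT box was found for Amd2, Oaz1 and Sms and in 33.8% of all windows, and the cyclic AMP response element for none of the 8 and in 1.55% of all. A match is a description of these letters.

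The reads of the Amd rows ran in parallel. Amd1 had 11481 reads in E−T−, 6731 in E+T−, 452 in E−T+ and 543 in E+T+. Amd2 had 14828, 8414, 570 and 681 reads in the same order. The ratio of Amd2 to Amd1 reads was 1.29 (1.26 to 1.32), 1.25 (1.21 to 1.29), 1.26 (1.11 to 1.43) and 1.25 (1.12 to 1.41), so that the ratio moved little while the counts moved more than 20-fold. The Amd rows are best read as 1 measurement of S-adenosylmethionine decarboxylase.

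The normalized count of Amd1 was 12211 in E−T−, 5456 in E+T−, 484 in E−T+ and 588 in E+T+. Both libraries of tumor-bearing mice were far below both libraries of healthy mice, and no counting intervals overlapped. The log2 difference was -4.65 (-4.80 to -4.52) with the tumor without exercise and -3.21 (-3.34 to -3.09) with the tumor in exercised mice. Exercise in healthy mice went with a fall of Amd1 as well, by 2.24-fold (log2 -1.16, -1.21 to -1.12), and Amd2 fell by 2.31-fold. In tumor-bearing mice the difference with exercise was 0.28 (0.10 to 0.46), which did not pass the 2-fold rule. With the Amd rows summed, the 4 log2 differences were -1.19 and 0.28 with exercise, in healthy and in tumor-bearing mice, and -4.67 and -3.21 with the tumor, in unexercised and in exercised mice.

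Odc1 (chr12:17544794-17551505, plus strand), the enzyme that commits ornithine to the pathway, moved little beside this. Its normalized count was 802 in E−T−, 659 in E+T−, 953 in E−T+ and 1218 in E+T+. The libraries of tumor-bearing mice were the higher pair, and each neighbour in the order differed beyond counting error. The largest difference, between cancer exercise and normal exercise, was 0.89 on the log2 scale (0.75 to 1.02), or 1.85-fold. The other differences were -0.28 and 0.35 with exercise, in healthy and in tumor-bearing mice, and 0.25 with the tumor without exercise. Of the 75-base windows in the end of the Odc1 transcript, 12.9% also occur in predicted genes such as Gm7993. Because both counts of a ratio come from the same library, the ratio of Amd1 to Odc1 reads does not depend on scaling. It was 15.2 (14.1 to 16.4) in E−T−, 8.28 (7.70 to 8.92) in E+T−, 0.508 (0.453 to 0.569) in E−T+ and 0.483 (0.435 to 0.536) in E+T+. The libraries of healthy and of tumor-bearing mice thus did not overlap in this ratio, and those of the tumor-bearing mice did not differ beyond counting error.

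Srm (chr4:148591503-148594993, plus strand), which makes spermidine from putrescine, was the one gene of synthesis that rose at least 2-fold with the tumor. It had 35 reads in E−T−, 122 in E+T−, 230 in E−T+ and 349 in E+T+, or normalized counts of 37.3, 98.8, 246 and 378. Normal control was lowest and cancer exercise highest, and neighbours in this order differed beyond counting error. The log2 difference was 2.69 (2.21 to 3.28) with the tumor without exercise and 1.92 (1.63 to 2.24) with the tumor in exercised mice. With exercise it was 1.38 (0.857 to 1.996) in healthy mice, a 2.61-fold rise, and 0.62 (0.37 to 0.86) in tumor-bearing mice, which did not pass the 2-fold rule. The value in healthy mice rests on the 35 reads of normal control.

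Sms (chrX:157443855-157492287, minus strand), which makes spermine from spermidine, was lower in the tumor-bearing mice without reaching 2-fold. Its normalized count was 795 in E−T−, 858 in E+T−, 412 in E−T+ and 454 in E+T+. The log2 difference with the tumor was -0.95 (-1.13 to -0.77) without exercise and -0.92 (-1.09 to -0.75) in exercised mice. Within the healthy and within the tumor-bearing pair the intervals spanned 0, at 0.11 (-0.03 to 0.25) and 0.14 (-0.06 to 0.34). The ratio of Srm to Sms reads was 0.0469 (0.0324 to 0.0658) in E−T−, 0.115 (0.0948 to 0.139) in E+T−, 0.597 (0.505 to 0.705) in E−T+ and 0.833 (0.721 to 0.962) in E+T+. Each library stood apart from the others in this ratio, and those of the tumor-bearing mice were highest.

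**Figure D2:**
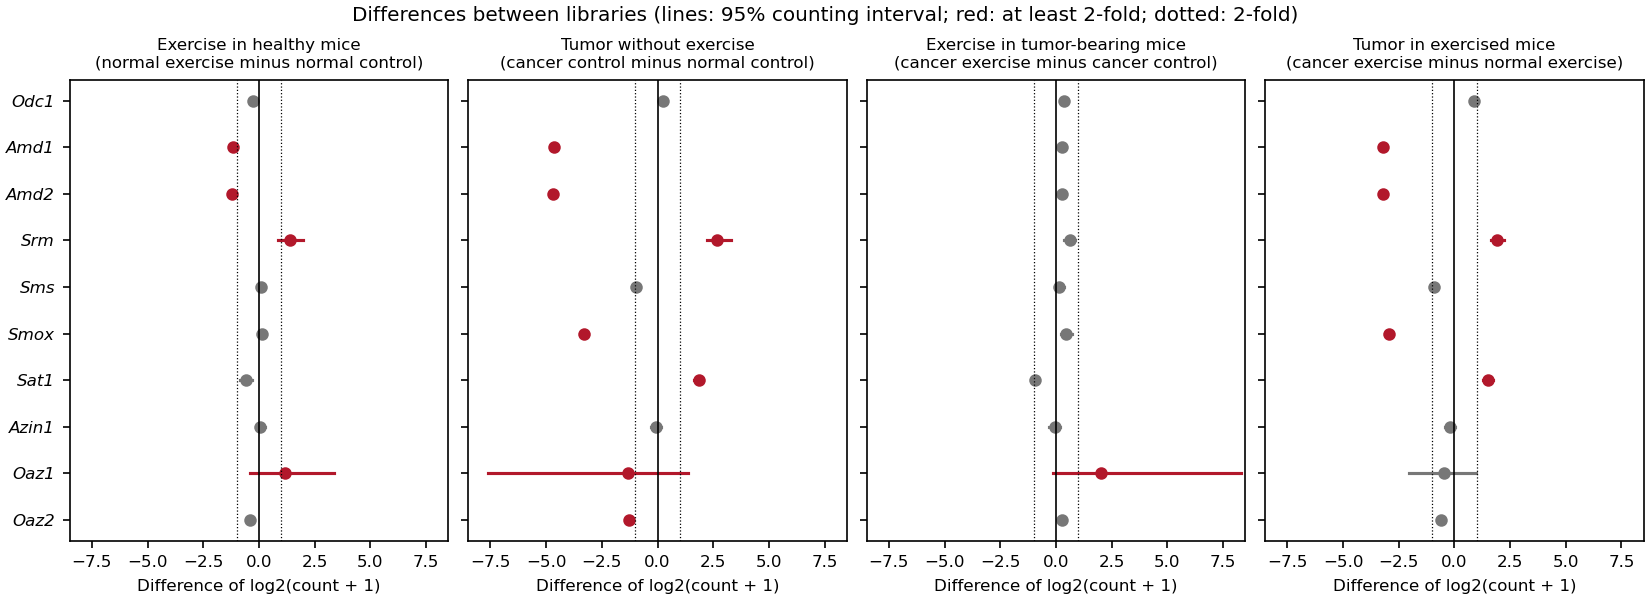
Difference of log2(normalized count + 1) for each polyamine gene (rows) in the 4 comparisons (panels), with the 95% counting interval as a line, genes at least 2-fold apart in red and dotted lines at 2-fold. The tumor panels hold the long falls of Amd1, Amd2 and Smox and the rises of Srm and Sat1, and with exercise in tumor-bearing mice Oaz1 alone is in red, with an interval from -0.14 to 8.32.

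Catabolism moved in both directions. Smox (chr2:131491496-131525922, plus strand), which oxidizes spermine to spermidine, had a normalized count of 2598 in E−T−, 2861 in E+T−, 265 in E−T+ and 367 in E+T+. The libraries of tumor-bearing mice were far below those of healthy mice. The log2 difference was -3.29 (-3.49 to -3.11) with the tumor without exercise and -2.96 (-3.13 to -2.80) with the tumor in exercised mice. With exercise it was 0.14 (0.06 to 0.21) in healthy and 0.47 (0.23 to 0.72) in tumor-bearing mice, both beyond counting error and both under 2-fold.

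Sat1 (chrX:155213132-155216449, minus strand), which acetylates spermidine and spermine for export or breakdown, went the other way. Its normalized count was 287 in E−T−, 190 in E+T−, 1039 in E−T+ and 535 in E+T+. Cancer control was highest and normal exercise lowest, with every neighbour in the order beyond counting error. The log2 difference with the tumor was 1.85 (1.66 to 2.06) without exercise and 1.49 (1.26 to 1.72) in exercised mice. With exercise it was -0.59 (-0.85 to -0.33) in healthy and -0.96 (-1.12 to -0.80) in tumor-bearing mice, where total count scaling took it past 2-fold (-1.02). The ratio of Smox to Sat1 reads was 9.05 (7.98 to 10.3) in E−T−, 15.0 (13.2 to 17.2) in E+T−, 0.254 (0.220 to 0.293) in E−T+ and 0.686 (0.596 to 0.790) in E+T+. Smox reads outnumbered Sat1 reads in both libraries of healthy mice, and Sat1 reads outnumbered Smox reads in both libraries of tumor-bearing mice.

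Markers of other cell types moved together with some of these genes. Over all genes, 20.9% were higher and 24.2% lower with the tumor without exercise, and 13.9% and 16.3% with the tumor in exercised mice. With exercise these shares were 9.44% and 12.1% in healthy mice, and 15.6% and 15.1% in tumor-bearing mice. The summed normalized count of 8 macrophage markers was 3733 in E−T−, 3591 in E+T−, 5984 in E−T+ and 5551 in E+T+, the same order of libraries as for Sat1. Of these markers 2 rose and 6 did not change with the tumor without exercise, and none was at 0. Those that rose were Cd68 (normalized count 92.6 to 1024) and C1qa (1132 to 2651). Of the 6, C1qb and Itgam were higher in cancer control than in normal control. Csf1r (849 to 526), Lyz2 (402 to 334), Mrc1 (549 to 489) and Adgre1 (71.3 to 67.5) were lower there, unlike Sat1. The 6 proliferation markers, Mki67 and Top2a among them, summed to 205, 178, 708 and 362, again in the order of Sat1. All 6 rose with the tumor without exercise. The 7 neutrophil markers found in the files summed to 108, 201, 2690 and 1936, with Csf3r, Retnlg and Ngp at 0 reads in normal control, and 5 of the 7 rose with the tumor without exercise. The fat markers, 6 of 6, fell with the tumor without exercise (median log2 -2.33), as did 5 of 7 fibroblast markers (median -3.82), in the comparison with the largest falls of Amd1 and Smox. With the tumor in exercised mice, where Amd1 and Smox also fell, 1 fat marker rose, 1 fell and 4 did not change (median -0.25). There 5 of 7 fibroblast markers fell (median -1.14). With exercise in tumor-bearing mice 4 fat markers and 3 fibroblast markers rose. Of the epithelial and skin markers 5 of 8 rose with the tumor without exercise, with Epcam at 0 or 1 read in every library and Krt5 at 0 in all but cancer control. The 7 endothelial markers summed to between 2773 and 3498. The 6 erythroid markers summed to 249009, 51513, 235229 and 504576, and 5 of 6 fell with exercise in healthy mice, while all 6 rose with exercise in tumor-bearing mice (median log2 1.19) and with the tumor in exercised mice (median 3.63). The summed muscle markers had the order of libraries of Amd1, and with the tumor without exercise 4 of the 9 fell and 1, the fast myosin Myh1, rose (1.30). With the tumor in exercised mice 1 fell and 2 rose, Myh1 (1.93) and Myh2 (1.17). The part of these cell types in the polyamine results was not tested.

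Among the regulators of ornithine decarboxylase, Azin1 (chr15:38487427-38519266, minus strand) was the steadiest of the 10 genes, with a range of 0.18 on the log2 scale. Its normalized count was 339 in E−T−, 353 in E+T−, 324 in E−T+ and 311 in E+T+. No neighbours in this order differed beyond counting error, and the interval of its largest difference, with the tumor in exercised mice, was -0.40 to 0.04 around -0.18.

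Oaz2 (chr9:65668001-65690300, plus strand), an antizyme, had a normalized count of 2006 in E−T−, 1500 in E+T−, 815 in E−T+ and 991 in E+T+. It fell 2.46-fold with the tumor without exercise (log2 -1.30, -1.42 to -1.18). In exercised mice the difference with the tumor was -0.60 (-0.71 to -0.48), and with exercise it was -0.42 in healthy and 0.28 in tumor-bearing mice, all 3 under 2-fold and beyond counting error.

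Oaz1 (chr10:80826656-80829290, plus strand) encodes the most widely expressed antizyme, yet its row held 4 reads in E−T−, 13 in E+T−, 1 in E−T+ and 7 in E+T+. All counting intervals of its differences spanned 0, so that the 2-fold calls of this row cannot be read as differences. The row of Oaz1-ps (chr17:17345456-17346140, minus strand), annotated as a processed pseudogene with 1 exon, held 4317, 6108, 1907 and 2616 reads in the same order. Every 75-base window of the last 500 bases of Oaz1-ps (100%) occurs without mismatch in an Oaz1 transcript, while 32.9% of the windows in the end of the Oaz1 transcript occur in Oaz1-ps. Reads of the Oaz1-ps row can therefore come from either gene, while most windows in the end of Oaz1 are not shared with Oaz1-ps. The Oaz1 row took between 0.0524% and 0.267% of the sum of both rows. Why it held so few reads was not tested. With the rows summed, the log2 difference was -1.17 with the tumor without exercise and -0.80 with the tumor in exercised mice, and with exercise it was 0.11 in healthy and 0.48 in tumor-bearing mice. When Amd1 was summed with Amd2 and Oaz1 with Oaz1-ps, a choice made after the data were seen, 9 genes were left. Of these 6 changed with the tumor without exercise (background over all genes 45.1%), 4 with the tumor in exercised mice (30.3%), 2 with exercise in healthy mice (21.5%) and 0 with exercise in tumor-bearing mice (30.6%).

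**Figure D3:**
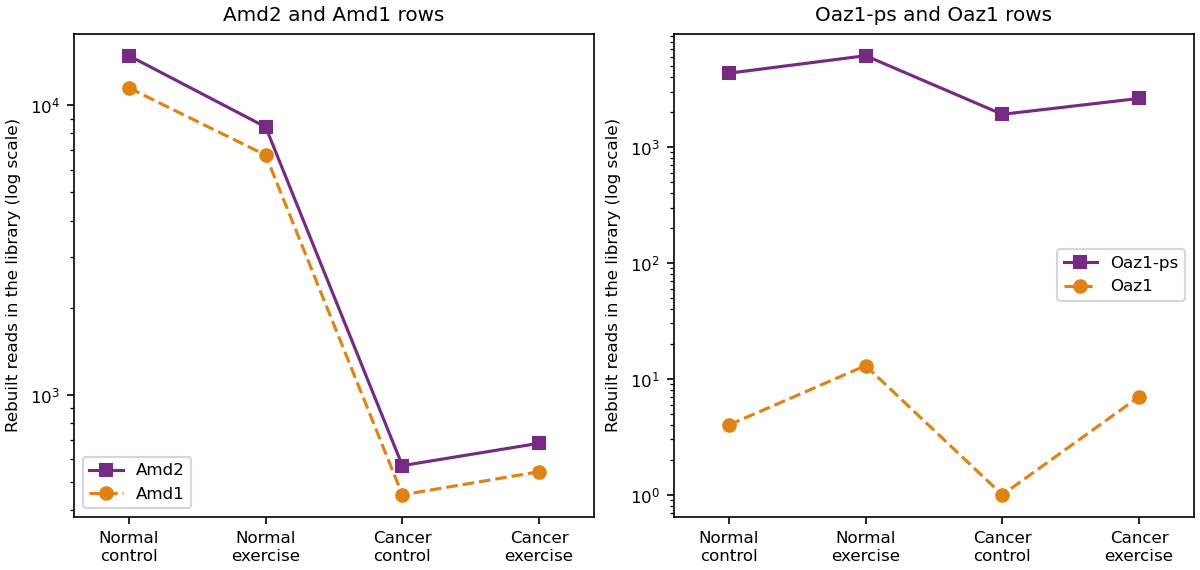
Reads in each library (log axis) of the Amd2 and Amd1 rows (left) and of the Oaz1-ps and Oaz1 rows (right), with lines that join the values of 1 row across the 4 libraries. Amd2 and Amd1 run in parallel at a ratio of 1.25 to 1.29, while Oaz1-ps holds between 1907 and 6108 reads where Oaz1 holds between 1 and 13.

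The enzymes and carriers that feed the pathway were described by lists of 62 other genes. Of these 59 had reads in at least 1 library. With the tumor without exercise 12 rose, 11 fell and 32 did not change, and in exercised mice 11 rose, 8 fell and 35 did not change. The background over all genes was 45.1% and 30.3%. With exercise 5 rose and 10 fell in healthy mice (background 21.5%), and 8 rose and 10 fell in tumor-bearing mice (30.6%). The medians over the genes with reads lay between 0.001 and 0.067 in the 4 comparisons, near those of all genes.

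Arginine and ornithine supply, 12 genes, had 4 that rose (background 20.9%) and 4 that fell (24.2%) with the tumor without exercise. Arg1, the arginase that makes ornithine from arginine and is abundant in liver and in some myeloid cells, had 4, 2, 266 and 34 reads in E−T−, E+T−, E−T+ and E+T+. Its log2 difference with the tumor was 5.75 (4.69 to 7.95) without exercise and 3.94 (2.54 to 7.61) in exercised mice, and cancer exercise against cancer control was -2.91 (-3.51 to -2.43). Slc25a15, which carries ornithine into mitochondria, had 215, 163, 25 and 94 reads, with both libraries of tumor-bearing mice below both of healthy mice. It fell by 3.04 with the tumor without exercise (-3.75 to -2.49), and cancer exercise was above cancer control by 1.89 (1.28 to 2.63). Slc7a2, a carrier of cationic amino acids, had 656, 618, 598 and 2140 reads, so that cancer exercise alone was high, by 1.85 against cancer control and by 2.21 against normal exercise. Slc25a2, Aldh18a1 and Otc also passed the 2-fold rule, on few reads. Slc25a2, a mitochondrial ornithine carrier, had 1, 2, 19 and 0 reads, and Aldh18a1, which makes ornithine precursors from glutamate, had 14, 7, 1 and 22. Otc, an enzyme of the urea cycle, had 7 reads in normal control and 0 in the other libraries. Oat, ornithine aminotransferase, changed in none of the comparisons (1414, 1892, 2014 and 1912 reads).

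The methionine cycle, which makes the S-adenosylmethionine that Amd1 uses, had 17 genes listed with the salvage of methylthioadenosine, the by-product of the aminopropyl transfers. With the tumor without exercise 3 rose (background 20.9%), 3 fell (24.2%) and 11 did not change. Mat2a, the methionine adenosyltransferase of most tissues outside the liver, had 2362, 3770, 530 and 1367 reads, and both libraries of tumor-bearing mice were below both of healthy mice. It fell by 2.14 (-2.28 to -2.01) with the tumor without exercise and by 1.05 with the tumor in exercised mice (-1.14 to -0.96), while cancer exercise was above cancer control by 1.38. Mat1a, the liver form, had 0, 3, 236 and 10 reads, so that cancer control alone was high. Gnmt, which consumes S-adenosylmethionine in methylating glycine, had 36, 156, 552 and 334 reads. It rose by 3.91 with the tumor without exercise, by 1.51 with the tumor in exercised mice and by 1.69 with exercise in healthy mice. Gamt, which uses S-adenosylmethionine to make creatine, had 258, 131, 11 and 15 reads and fell in the same 3 comparisons, by 4.42, 2.63 and 1.36. Nnmt, which methylates nicotinamide, fell with exercise in healthy mice (-1.68, 107 to 43 reads). Bhmt, which remethylates homocysteine with betaine, had 10, 1, 17 and 1 reads. Of the salvage genes, Apip had 304, 191, 70 and 140 reads. It fell with the tumor without exercise (-2.09) and with exercise in healthy mice (-1.06), and rose with exercise in tumor-bearing mice (1.01). Mri1 rose with exercise in healthy (1.37) and in tumor-bearing mice (1.86). Enoph1 fell with the tumor in exercised mice (-1.35, 101 to 29 reads), and Mtap and Adi1 changed in none of the comparisons.

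Of the 6 other enzymes and regulators of polyamines, Paox, the acetylpolyamine oxidase that acts after Sat1, rose with the tumor without exercise (96 to 326 reads, log2 1.76, 1.44 to 2.12). Its difference with the tumor in exercised mice was 0.82 (204 to 270 reads). Azin2 had 7 reads in normal exercise and 0 in the other libraries, and Oaz3 and Satl1 had 0 reads in all 4. Hypusine, an amino acid made from spermidine on the initiation factor eIF5A, needs Dhps and Dohh. None of the 4 genes of this list passed the 2-fold rule in any comparison, where between 21.5% and 45.1% of all genes did. Eif5a came nearest, with 2428, 3631, 4573 and 3465 reads and a log2 difference of 0.92 with the tumor without exercise.

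Among 10 transport genes, Slc3a2, the heavy chain of several amino acid carriers that has also been linked to polyamine export, had 569, 1514, 1861 and 2016 reads, with normal control the lowest. It rose by 1.02 with exercise in healthy mice and by 1.72 with the tumor without exercise. Slc22a3, an organic cation transporter, had 82, 44, 30 and 1 reads, and fell in all 4 comparisons (log2 -1.27 and -3.95 with exercise, in healthy and in tumor-bearing mice, and -1.41 and -4.09 with the tumor, in unexercised and in exercised mice). Of these, the pair that rests on the 1 read of cancer exercise had intervals of -10.2 to -2.30 and -10.4 to -2.49. Slc47a1, an exporter of organic cations, had 238, 407, 152 and 573 reads and rose with exercise in tumor-bearing mice (1.92, 1.67 to 2.20). Slc22a2, of the same family as Slc22a3, had 15, 4, 0 and 16 reads. Atp13a2 and Atp13a3, which move polyamines out of lysosomes and endosomes, changed in none of the comparisons.

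Of 13 transcription factors and cell-cycle regulators linked to the pathway, 3 rose and 2 fell in each tumor comparison. Of all genes past the minimum, 45.1% changed without exercise and 30.3% in exercised mice. Myc, a known activator of Odc1 transcription, had 1, 4, 35 and 41 reads, higher in both libraries of tumor-bearing mice, with log2 differences of 4.19 (2.57 to 10.5) without exercise and 3.47 (2.31 to 5.72) with it. Cdkn1a, a cell-cycle inhibitor, had 380, 336, 8029 and 3386 reads and rose by 4.41 and 3.75. Mnt, a repressor that competes with MYC for its partner, had 166, 108, 392 and 142 reads. It rose with the tumor without exercise (1.245) and fell with exercise in healthy (-1.01) and in tumor-bearing mice (-1.44). Mycn had 9 and 8 reads in the libraries of healthy mice and 0 in those of tumor-bearing mice. Gadd45a, a stress gene linked to muscle atrophy, rose with the tumor in exercised mice by 2.02 (116 to 355 reads), with a difference of 0.34 with the tumor without exercise.

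**Figure D4:**
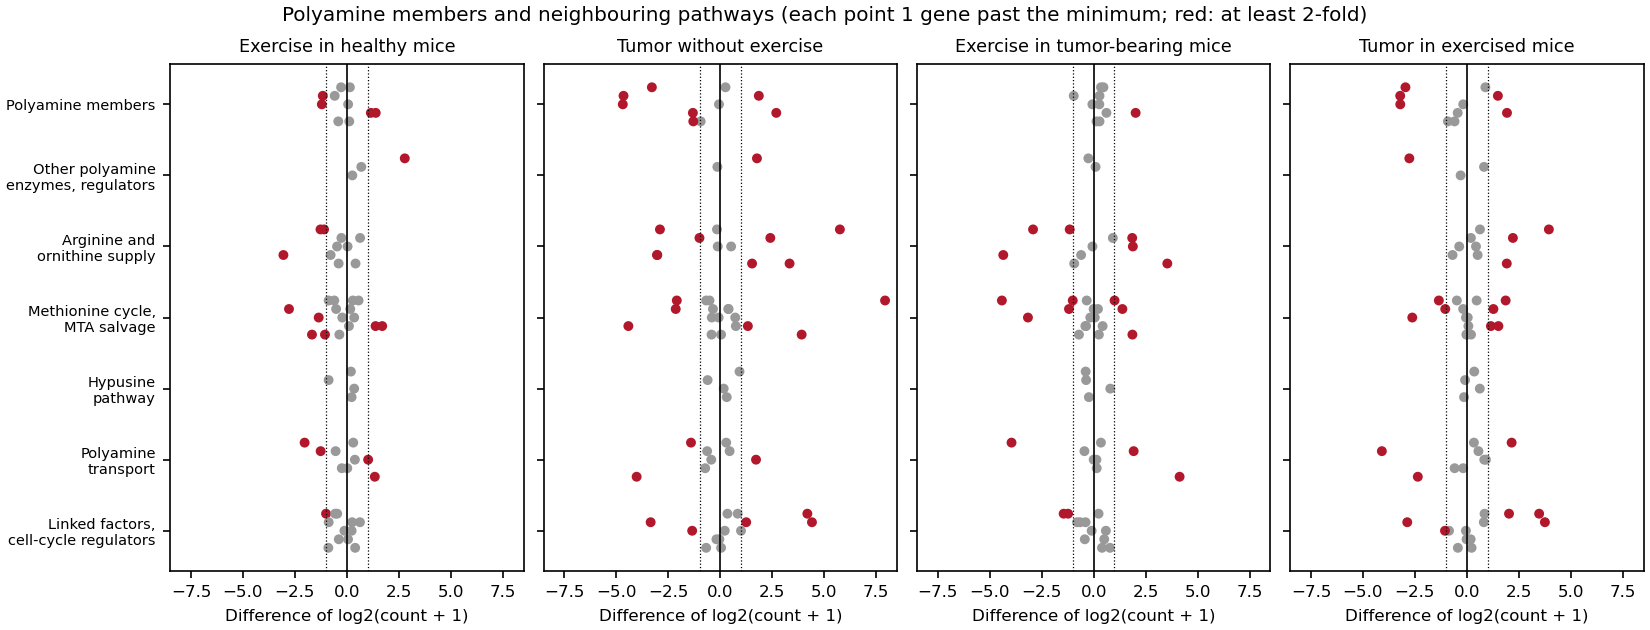
Difference of log2(normalized count + 1) in the 4 comparisons (panels) for the polyamine genes and the 6 lists of related genes (rows), with 1 point per gene past the minimum count, red where it is at least 2-fold, and dotted lines at 2-fold. The related lists scatter to both sides of 0, and the 4 hypusine genes stay inside the dotted lines. Of the 10 polyamine genes 7 lie below 0 in each tumor panel. The medians of all genes past the minimum are -0.04 without exercise and -0.03 in exercised mice. These 7 include Amd1 and Amd2, best read as 1 measurement, and Azin1 and Oaz1, whose intervals span 0. The share of all genes below 0 was not computed.

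The likeness of patterns was measured as the root mean square difference of log2 values, centred per gene over the 4 libraries, among 12054 other genes with a mean normalized count of at least 16. It was computed for the 3 polyamine genes with the widest ranges, Amd2, Amd1 and Smox (4.69, 4.65 and 3.43 on the log2 scale). After each other (0.0186), the nearest to the Amd rows were Adrbk2 (0.178 from Amd1), Scd1 (0.200 from Amd1) and 2310065F04Rik (0.201 from Amd2). Scd1, a fatty acid desaturase, had normalized counts of 8895 in E−T−, 3945 in E+T−, 367 in E−T+ and 596 in E+T+. Nearest to Smox were Egflam (0.105), Pde4a (0.177) and Tfrc (0.178). Tfrc, the transferrin receptor, had normalized counts of 1330, 1748, 126 and 159. These are likenesses over 4 libraries.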

How the data were processed

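Total RNA of gastrocnemius muscle was sequenced with a QuantSeq 3′ kit, in which reads come from the 3′ ends of transcripts. According to the methods and the processing notes, the authors aligned reads with Bowtie2 (mm10, which is GRCm38), counted them with bedtools and applied quantile normalization with edgeR. Versions, annotation and the handling of strand and of reads with several matches are not given in the sources used here. The authors deposited 1 table per library, with each gene's normalized count, plus 1, on a log2 scale. Groups were taken from the sample titles.

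Whole reads were rebuilt by fitting a negative binomial quantile adjustment with 1 relative size per library and 1 dispersion (0.339), after which 100% of the deposited values were matched within 0.0006. Between 93.8% and 95.5% of the values per library fitted 1 whole number of reads, and the larger counts are approximate. Differences are of deposited log2 values (pseudocount 1). Changed genes differ at least 2-fold, with a normalized count of at least 4 in either library. The thresholds are those of the study, and that 1 library suffices was set here. Under this rule 3121 genes changed with exercise in healthy mice and 4437 in tumor-bearing mice, in both cases more than the paper counts. The procedure was tested on reads simulated with counting error alone and converted with the same fitted model, with 4-fold changes in genes away from low counts. Such a test cannot show the spread between animals or the effect of reads shared between rows. Scaling, pseudocounts, minima and fold thresholds were varied. Python 3.11.15, scipy 1.17.1, Biopython 1.88, GENCODE M21 and RefSeq promoters (GRCm38.p6) were used.

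All 10 polyamine genes are named. Of the other lists, genes named are those past the 2-fold rule, up to 4 per list and comparison by size, and the 3 nearest patterns of the 3 widest genes. Apip and Slc7a1 lay beyond that limit and were added after their values were seen. Some genes of these lists are not reported here by name. Members that did not change are named to complete a list and were chosen after their values were seen. The members and lists were chosen with earlier results of these data known. The summed Amd and Oaz1 rows were an alternative added after the data were seen.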

Additional observations from a re-analysis of the deposited data

Results flagged for a closer look

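In 5 polyamine genes the exercise difference had one sign in healthy mice and the other in tumor-bearing mice. Of these, Amd1 and Amd2 are best read as 1 measurement, and in no gene did both differences reach 2-fold. The share of all genes with opposite signs was not computed, so that the count has no background. Each exercise difference rests on 1 pair of libraries, and the difference between them was not tested. Tumor-bearing minus healthy mice, the exercise differences were apart by 0.64 for Odc1, 1.44 for Amd1, 1.48 for Amd2, 0.70 for Oaz2 and -0.12 for Azin1, on the log2 scale. Amd1 went from -1.16 in healthy to 0.28 in tumor-bearing mice and Amd2 from -1.21 to 0.27, of which the values in healthy mice passed the 2-fold rule. Odc1 went from -0.28 to 0.35 and Oaz2 from -0.42 to 0.28, all 4 under 2-fold and beyond counting error. The values of Azin1, 0.06 (0.055) and -0.06, had intervals that spanned 0.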

How the results depend on the processing

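Each group had 1 library, so that leaving out a replicate gives no value. No paired analysis was possible because each group holds a single library and the labels give no replicate numbers. A recomputed count of changed genes was taken as moved when it and the reported count differed by a factor over 1.5, or when it became 0. Of 84 recomputed counts, 19 moved and 65 did not. Of 250 recomputed values of single genes, 236 moved by less than the counting interval, and none that had passed 2-fold changed sign. Total count scaling moved the median of all genes by 0.16 with exercise in healthy mice and by -0.15 with the tumor in exercised mice, on the log2 scale, and moved the balance of all genes from 1371 higher and 1750 lower to 1685 and 1502 in the former and from 2014 and 2364 to 1702 and 2798 in the latter. Under it Sms fell past 2-fold with the tumor in exercised mice (-1.07), Azin1 was at 0.01 (0.0077) with the tumor without exercise, and 2 rather than 1 polyamine genes changed with exercise in tumor-bearing mice. With a pseudocount of 4 Oaz1 was under 2-fold with the tumor without exercise (-0.69) and in healthy mice with exercise (0.83).

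Other counts of polyamine genes that moved were as follows. With exercise in healthy mice, where 4 changed, the count was 0 at 4-fold and 2 with the Amd rows and the Oaz1 rows summed. With the tumor without exercise, where 7 changed, it was 4 at 4-fold. With exercise in tumor-bearing mice, where 1 changed, it was 3 at 1.5-fold, and 0 with a minimum of 4 in both libraries, with a minimum of 16 and with the rows summed. With the tumor in exercised mice, where 5 changed, it was 8 at 1.5-fold and 3 at 4-fold. Of the other pathway genes, 15 with exercise in healthy mice became 9 with a minimum of 4 in both libraries, 8 with a minimum of 16, 24 at 1.5-fold and 4 at 4-fold. The 23 with the tumor without exercise became 15 at 4-fold, and the 18 with exercise in tumor-bearing mice 7. The 19 with the tumor in exercised mice became 11 with a minimum of 4 in both libraries, 29 at 1.5-fold and 11 at 4-fold. Stricter thresholds pass fewer genes by construction.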
